A study of Mus musculus with 24 samples.

Results

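The guanylate-binding proteins (GBPs) and the immunity-related GTPases (IRGs) are GTPase families that were followed here through 10 genes: Gbp2, Gbp3, Gbp4, Gbp5, Gbp6, Gbp7, Gbp8, Gbp9, Igtp and Irgm1. The 10 members were taken by gene symbol from 4 deposited count tables, in which 48337 genes had a unique symbol, and all 10 were found in each table. The question asked of them was whether they moved together in liver macrophages and in liver endothelial cells (ECs), or one by one.

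The 24 RNA-sequencing libraries came from mouse livers on the C57BL/6 strain (C57BL/6J in the study's methods) and fell into 8 groups of 3. Bmp9/10-HSC-KO mice (here HSC-KO) carried Gdf2 fl/fl and Bmp10 fl/fl alleles with Lrat-Cre, a Cre driver of hepatic stellate cells, so both ligands, GDF2 (BMP9) and BMP10, were deleted in the stellate cells, which are part of the whole liver tissue and not of the sorted macrophages and ECs. Macrophages (CD45+Ly6C-F4/80+CD64+) and ECs (CD45-CD31+) were sorted from HSC-KO and control mice of 8 to 10 weeks, and whole liver tissue was taken at 12 weeks. In a separate experiment macrophages were sorted from Smad4FF mice (Smad4 fl/fl) and from Smad4FF cKO mice, also of 8 to 10 weeks, in which Vav1-Cre removes Smad4, the shared signal transducer of the BMP and TGF-beta pathways, from blood cell lineages. The labels call the controls of the HSC-KO groups control or WT and give no alleles for them, and no interferon treatment or infection was part of any group. By the mouse numbers in the labels, 3 mice gave both a macrophage and an EC library.

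GBPs and IRGs are among the genes most strongly induced by interferon-gamma, and many of them also respond to type I interferons. GBPs assemble as coats on pathogen vacuoles and bacteria and help inflammasomes to form, while effector IRGs disrupt the vacuole membrane and the regulatory IRGs, Igtp (also called Irgm3) and Irgm1, keep the effectors off the host's own membranes. In the mouse the GBP genes lie in clusters on chromosomes 3 and 5, and most IRG genes lie on chromosome 11.

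On GRCm38, in the GENCODE vM21 annotation, the chromosome 3 cluster held Gbp5 (chr3:142493978-142522344), Gbp7 (chr3:142530342-142550149), Gbp3 (chr3:142560026-142573209) and Gbp2 (chr3:142620602-142638008), all on the plus strand. The chromosome 5 cluster held Gbp8 (chr5:105014150-105139540), Gbp9 (chr5:105077630-105139539), Gbp4 (chr5:105115767-105139586) and Gbp6 (chr5:105270702-105293698), all on the minus strand. Igtp (chr11:58199556-58207591, plus strand) and Irgm1 (chr11:48861968-48871683, minus strand) lay apart on chromosome 11. Of the family genes outside the 10, Gbp2b (chr3:142594847-142619179) lies between Gbp3 and Gbp2. All 10 are annotated as protein-coding.

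RefSeq promoter sequences of the build GRCm38.p6 were at hand for 6 of the 10 members. Each of the 6 held the core of an interferon-stimulated response element, searched on both strands as 2 copies of GAAA with any 2 bases between them, in the 250 bases before the gene start as RefSeq gives it, for Gbp3 in 1 of its 2 start sites. The RefSeq starts of Gbp2, Gbp3, Gbp5 and Irgm1 lie inside the GENCODE genes given above, so that 61, 18, 34 and 250 bases of the windows shown for these genes are annotated as exon there. The windows of Gbp7 and Igtp hold no annotated exon. Of 32851 promoters in the same table, 2.98% held this core. The stretches below are shown because they are what these members share in sequence. They run 5′ to 3′ on the gene's strand, and capitals mark the matches to this core (2 copies of TTTC, likewise spaced, where it lies on the other strand) and, in Igtp, to the gamma-activated sequence TTCNNNGAA.
Gbp2, chr3:142620594-142620623, plus strand: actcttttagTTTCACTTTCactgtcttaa
Gbp3, chr3:142559992-142560021, plus strand: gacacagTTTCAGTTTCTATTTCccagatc
Gbp5, chr3:142496759-142496788, plus strand: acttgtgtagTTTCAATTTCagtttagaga
Gbp7, chr3:142530273-142530302, plus strand: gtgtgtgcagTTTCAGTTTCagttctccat
Igtp, chr11:58199507-58199536, plus strand: ccatTTCTAGGAActGAAACTGAAAgctgt
Irgm1, chr11:48871428-48871457, minus strand: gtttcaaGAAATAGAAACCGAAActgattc

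In the chromosome 3 members the core read as 2 copies of TTTC on the gene's strand, and in the chromosome 11 members as 2 copies of GAAA. Gbp3 and Irgm1 each had 2 overlapping matches. The gamma-activated sequence TTCNNNGAA, which occurred in 7.02% of all promoters, was also found in the windows of Gbp5, Gbp7 and Igtp, and both motifs together occurred in 0.332% of all promoters. The whole window before the Igtp start (chr11:58199306-58199555, plus strand) shows how close to each other and to the gene start the 2 motifs lie:
Igtp: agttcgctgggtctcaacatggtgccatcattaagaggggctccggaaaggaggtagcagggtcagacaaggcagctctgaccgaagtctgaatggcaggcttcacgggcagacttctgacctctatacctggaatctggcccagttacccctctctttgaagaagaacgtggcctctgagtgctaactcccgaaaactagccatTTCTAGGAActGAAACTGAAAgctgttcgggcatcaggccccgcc
Of the family genes outside the 10, the IRG genes Irgm2, Tgtp1 and Tgtp2 on chromosome 11 carried the same pair of motifs in the same spacing, and are shown for the likeness of their stretches to that of Igtp. Of the other family genes with a promoter in the table, Gbp2b held the core alone and Ifi47 held neither motif:
Irgm2, chr11:58214898-58214927, plus strand: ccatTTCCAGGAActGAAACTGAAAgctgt
Tgtp1, chr11:48992309-48992338, minus strand: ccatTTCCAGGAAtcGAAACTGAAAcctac
Tgtp2, chr11:49064268-49064297, minus strand: ccatTTCCAGGAAtcGAAACCGAAAcctac
A match to these letters is a description of the window and not a test of binding, and the motifs were not tested against the changes of the genes.

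The libraries held 60911527 to 110879155 counted reads. Levels are given in CPM, which are counts relative to the TMM-scaled library total, and changes as log2 fold change ± SE of HSC-KO or cKO against control with n = 3 per group. Levels of single genes were scaled within their own table. Marker sums, estimates of RNA from other cells, levels per kilobase and deviations from group means were scaled over all 24 libraries together. Genes were tested with edgeR's quasi-likelihood test with Benjamini-Hochberg adjustment over all tested genes. A gene is said to have risen or fallen where its adjusted p was below 0.05, and was counted as a differentially expressed gene (DEG) where its log2 fold change also exceeded 1 in size. The methods describe the replicates as separate mice. The deleted genes were lower in the groups labelled as mutant. Gdf2 in livers went from 16.8 ± 6.71 to 2.86 ± 0.887 CPM (SD, n = 3, adjusted p = 0.0135), Bmp10 from 2.66 ± 0.643 to 0.156 ± 0.0923 CPM (adjusted p = 0.00657), and Smad4 in the cKO macrophages from 39.4 ± 3.82 to 15.1 ± 2.32 CPM (adjusted p = 0.00234). The summed level of 8 macrophage markers was 20001 to 38932 CPM in the macrophage libraries and 58.1 to 302 CPM in the EC libraries. That of 8 endothelial markers was 7929 to 12703 CPM in the ECs and 30.1 to 1981 CPM in the macrophage libraries. It was 647 to 1981 CPM in the macrophages of the Smad4 experiment.

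In HSC-KO ECs 9 of the 10 members rose. All 10 members had every HSC-KO library above every control library, 8 of 10 were DEGs, Irgm1 rose without reaching the fold limit and Gbp8 did not pass. Across all 16053 genes tested in ECs, 20.2% were higher without overlap between the groups, 10.3% rose by adjusted p and 7.68% were DEGs in this direction (13.7% in either direction). The median log2 fold change of the members was 1.35, against 0.0047 over all tested genes. In such bulk libraries, more cells that express a gene and more RNA of it per cell cannot be told apart.

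The regulatory IRG Igtp, which restrains the effector IRGs, had the smallest adjusted p of the 10 in ECs. Its level was 57.4, 46.2 and 52.6 CPM in the 3 controls and 206, 232 and 204 CPM in the 3 HSC-KO libraries. The rise was 4.10-fold, a log2 fold change of 2.04 ± 0.14 with an adjusted p of 0.000124. Irgm1, the other regulatory IRG, moved far less. It stood at 26.1, 27.9 and 22.4 CPM in controls and at 36.5, 45.1 and 38.8 CPM in HSC-KO ECs, a log2 fold change of 0.66 ± 0.15 (adjusted p = 0.0199).

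All 4 members in the chromosome 3 cluster rose, while Gbp2b, in the same cluster and outside the 10, did not pass (-1.04 ± 0.74, adjusted p = 0.387). Gbp3 had the highest fold of all members, with 29.4, 42.2 and 32.2 CPM in control ECs and 92.2, 188 and 158 CPM in HSC-KO ECs (log2 fold change 2.08 ± 0.28, adjusted p = 0.00212). Gbp5, which promotes inflammasome assembly, went from 5.94, 8.57 and 7.03 CPM to 18.4, 30.6 and 29.98 CPM (1.87 ± 0.24, adjusted p = 0.00191). Gbp2, a coat protein of parasite vacuoles, was nearly even across the controls and clearly higher in each HSC-KO library. Its levels were 62.9, 59.1 and 59.8 CPM in controls against 151, 217 and 226 CPM (1.71 ± 0.17, adjusted p = 0.000658). Gbp7 was at 140, 175 and 143 CPM in controls and 308, 547 and 502 CPM in HSC-KO ECs (1.57 ± 0.23, adjusted p = 0.00352). In each of these 4 genes HSC-KO replicate 1 was the lowest of the 3 mutant libraries and still lay above all controls.

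The members on chromosome 5 had smaller folds. Gbp9 went from 64.2, 52.6 and 57.0 CPM in controls to 111, 130 and 138 CPM in HSC-KO ECs (1.12 ± 0.14, adjusted p = 0.00150). Gbp4 went from 90.1, 65.9 and 88.6 to 140, 173 and 185 CPM (1.02 ± 0.17, adjusted p = 0.00595), just past the fold limit. It lost its place among the DEGs, at log2 fold changes of 0.89, 0.99 and 0.94, without control replicate 2, HSC-KO replicate 2 or HSC-KO replicate 3. Gbp6 was close to it in fold, with 28.8, 23.5 and 23.1 CPM against 44.99, 55.6 and 56.1 CPM (1.06 ± 0.16, adjusted p = 0.00345), and came to 0.996, within the fold limit, without control replicate 3. Gbp8 was the 1 member that did not pass in ECs. Its levels were 2.28, 3.23 and 3.33 CPM in controls and 5.13, 4.70 and 4.30 CPM in HSC-KO ECs, and the log2 fold change of 0.68 ± 0.25 did not pass (adjusted p = 0.101).

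Some members share sequence with neighbours, and these counts are less certain. Of the 100-base windows of Gbp6 transcripts, 64.5% also occurred in other genes, and 59.0% in Gm43302, a neighbouring gene model on the same strand whose count was 0 in some libraries of both sorted cell types and up to 2829 in others. With the counts of Gbp6 and Gm43302 added together, a choice made after the data were seen, the EC log2 fold change was 1.56 ± 0.18 (adjusted p = 0.00123). The shared fraction was 10.0% for Gbp7, 5.16% for Igtp (with Irgm2) and 4.39% for Gbp8, at most 1.65% for Gbp3, Gbp4, Gbp5 and Gbp9, and 0 for Gbp2 and Irgm1. Sums over the members of each cluster are not changed by reads split among those members, but leave out Gm43302, Irgm2 and the other family genes. In ECs the chromosome 3 sum rose by a log2 fold change of 1.69 ± 0.23 (adjusted p = 0.00238), the chromosome 5 sum by 1.06 ± 0.16 (adjusted p = 0.00355) and the chromosome 11 sum by 1.71 ± 0.13 (adjusted p = 0.000181).

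**Figure D1:**
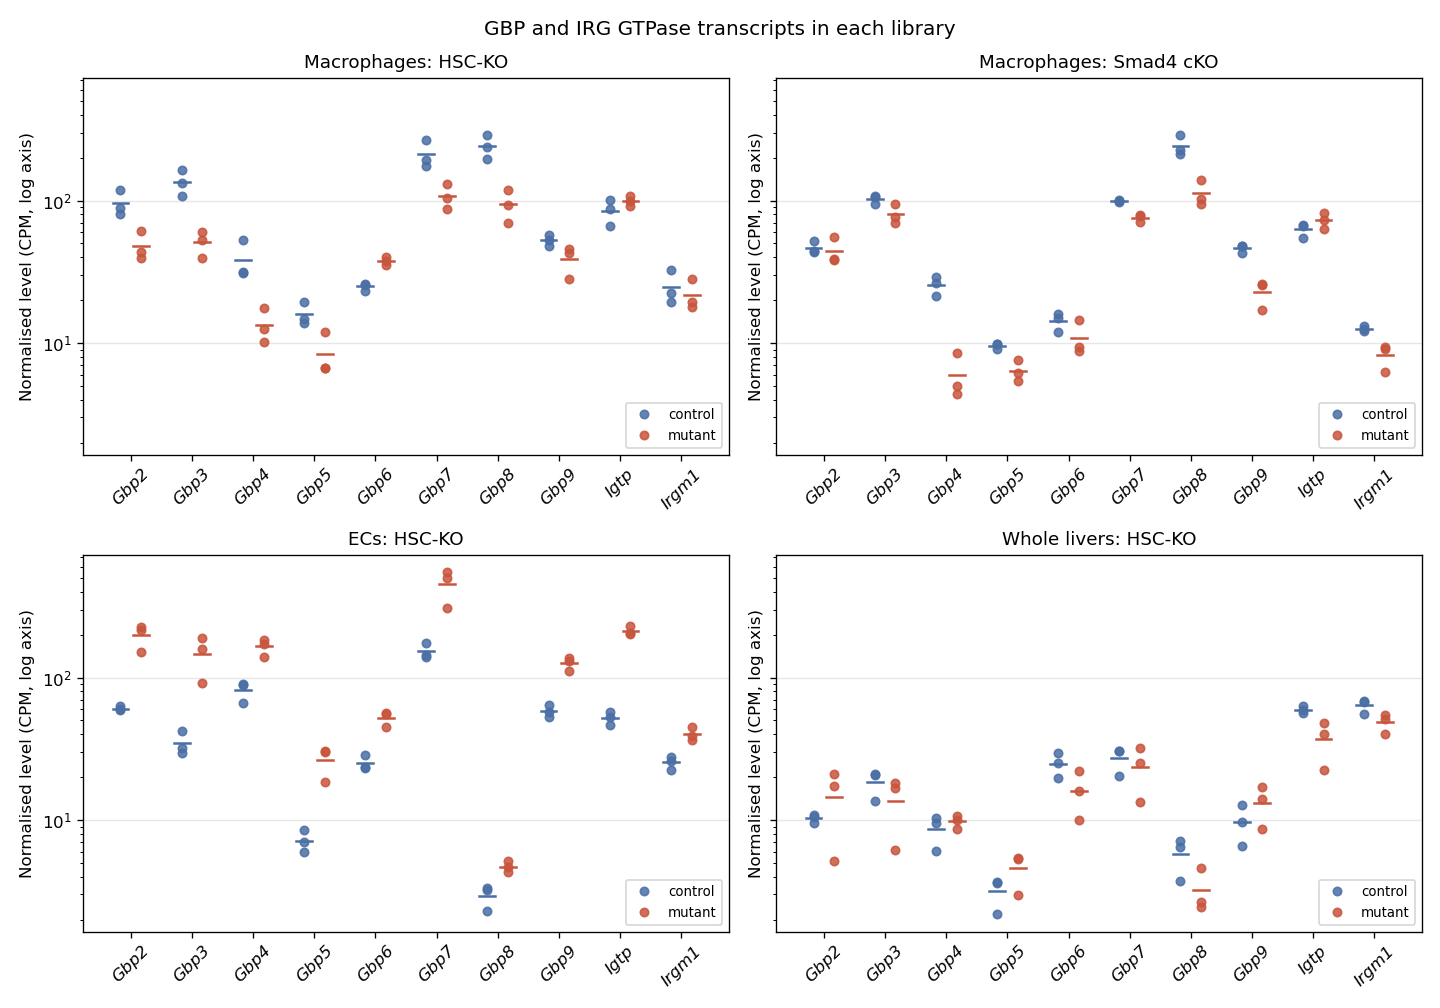
Level of each of the 10 members in every library, in CPM on a log axis, with 1 panel each for macrophages of the HSC-KO experiment, macrophages of the Smad4 experiment, ECs and livers. Points are libraries (control blue, mutant red, n = 3 each) and short lines are group means. In ECs the red points lie above the blue points for all 10 members, while in HSC-KO macrophages they lie below for 7 and above for Gbp6.

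Markers of other cells in the EC libraries were as follows. The 8 macrophage markers summed to 223 to 302 CPM in control ECs and to 58.1 to 96.0 CPM in HSC-KO ECs, and Fcgr1 was at 0 in all 3 HSC-KO libraries. T cell markers (6 genes) summed to 10.7 to 16.1 CPM in controls and 9.53 to 14.3 CPM in HSC-KO. The defining T cell genes Cd3e and Cd3g were at 0 counts in all 6 EC libraries, and nearly all of the sum was Lck. NK and ILC1 markers (7 genes) summed to 0 to 0.399 CPM in controls and 0.0654 to 0.750 CPM in HSC-KO, with Ncr1, Klrb1c and Eomes at 0 in all 6 libraries, and all 5 neutrophil markers were at 0. Monocyte markers (6 genes) were higher in HSC-KO, at 9.51 to 11.8 CPM in controls and 73.0 to 102 CPM in HSC-KO. Nearly all of this sum was Ly6c2 and Plac8, and Chil3 was at 0 throughout. The part of the monocyte genes in the rise of the members was not tested. If macrophage RNA had reached the EC libraries in the proportion of its markers, it would make up at most 4.99% of the control EC level of each member except Gbp8, and at most 0.330% of the HSC-KO EC level. For Gbp8 the same estimate was 105% of its control EC level and 9.12% of its HSC-KO EC level.

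In HSC-KO macrophages, from the same experiment, the members did not share a direction. The GBPs Gbp2, Gbp3, Gbp4 and Gbp8 fell past the fold limit, Gbp7 fell within it, Gbp6 rose, and Gbp5, Gbp9 and both IRGs did not pass. The 4 DEGs among 10 members, all lower, compare with 5.34% of 16337 tested genes that were DEGs in this direction (11.7% in either). Lower without overlap were 7 of 10 members, against 19.6% of all tested genes. The median log2 fold change was -0.95 over the members and 0.039 over all tested genes.

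Gbp4 had the lowest fold of the 10 in these cells. Its level was 31.7, 30.8 and 52.6 CPM in control macrophages and 10.1, 12.5 and 17.6 CPM in HSC-KO macrophages (log2 fold change -1.52 ± 0.28, adjusted p = 0.00906). Gbp3 went from 107, 133 and 165 CPM to 39.8, 52.6 and 60.2 CPM (-1.41 ± 0.21, adjusted p = 0.00338). Gbp8, with few reads in ECs, was at 197, 238 and 290 CPM in control macrophages. In HSC-KO macrophages it was at 70.1, 93.5 and 120 CPM (-1.36 ± 0.22, adjusted p = 0.00537). Gbp2 and Gbp7 stood on either side of the fold limit. Gbp2 went from 80.9, 88.9 and 120 CPM to 39.2, 43.6 and 61.3 CPM (-1.005 ± 0.213, adjusted p = 0.0154), and Gbp7 from 176, 193 and 265 CPM to 87.1, 104 and 131 CPM (-0.98 ± 0.21, adjusted p = 0.0150). Leaving out control replicate 3, HSC-KO replicate 1 or HSC-KO replicate 2 took Gbp2 out of the DEGs, at -0.82, -0.88 and -0.94. Gbp7 became one without control replicate 1, control replicate 2 or HSC-KO replicate 3, at -1.10, -1.04 and -1.14.

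The remaining GBPs were lower by less, or higher. Gbp5 was at 13.9, 14.8 and 19.3 CPM in controls and at 6.70, 6.67 and 11.9 CPM in HSC-KO macrophages, and missed the threshold (-0.93 ± 0.27, adjusted p = 0.0503), which it passed without HSC-KO replicate 3 (-1.26, adjusted p = 0.0136). Gbp9 was at 47.7, 53.2 and 56.9 CPM against 28.3, 46.0 and 42.9 CPM (-0.43 ± 0.19, adjusted p = 0.164). Gbp6 went the other way from its cluster. It was at 26.05, 23.3 and 25.7 CPM in controls and at 35.5, 37.4 and 40.4 CPM in HSC-KO macrophages (0.59 ± 0.12, adjusted p = 0.0131), and its sum with Gm43302 gave 0.61 ± 0.17 (adjusted p = 0.0389).

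The IRGs overlapped between the groups. Igtp was at 87.6, 66.7 and 101 CPM in control and 99.9, 91.7 and 108 CPM in HSC-KO macrophages (0.23 ± 0.17, adjusted p = 0.379). Irgm1 was at 19.5, 22.3 and 32.6 CPM and at 28.04, 19.5 and 18.0 CPM (-0.18 ± 0.25, adjusted p = 0.654). By cluster, the chromosome 3 sum fell by 1.10 on the log2 scale (adjusted p = 0.0103), the chromosome 5 sum fell by 0.96 (adjusted p = 0.0131) and the chromosome 11 sum had a log2 fold change of 0.15 (adjusted p = 0.581).

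The HSC-KO macrophage libraries also differed from their controls in markers of other cells. T cell markers summed to 16.0 to 34.2 CPM in controls and 159 to 244 CPM in HSC-KO, NK and ILC1 markers to 8.52 to 15.4 and 48.9 to 148 CPM, B cell markers (4 genes) to 64.6 to 106 and 160 to 197 CPM, and monocyte markers to 126 to 217 and 1380 to 2148 CPM, most of the last from Cx3cr1. No marker of the T, NK and B cell lists was at 0 in a whole group. Endothelial markers summed to 260 to 516 CPM in controls and 30.1 to 85.6 CPM in HSC-KO. The summed level of 8 Kupffer cell markers, genes of the resident liver macrophage, was 28934 to 30412 CPM in controls and 41.8 to 214 CPM in HSC-KO. The part of these markers in the changes of the members was not tested. From the endothelial markers, EC RNA would make up at most 7.24% of a member's control macrophage level and 10.8% of its HSC-KO level, both for Gbp4.

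**Figure D2:**
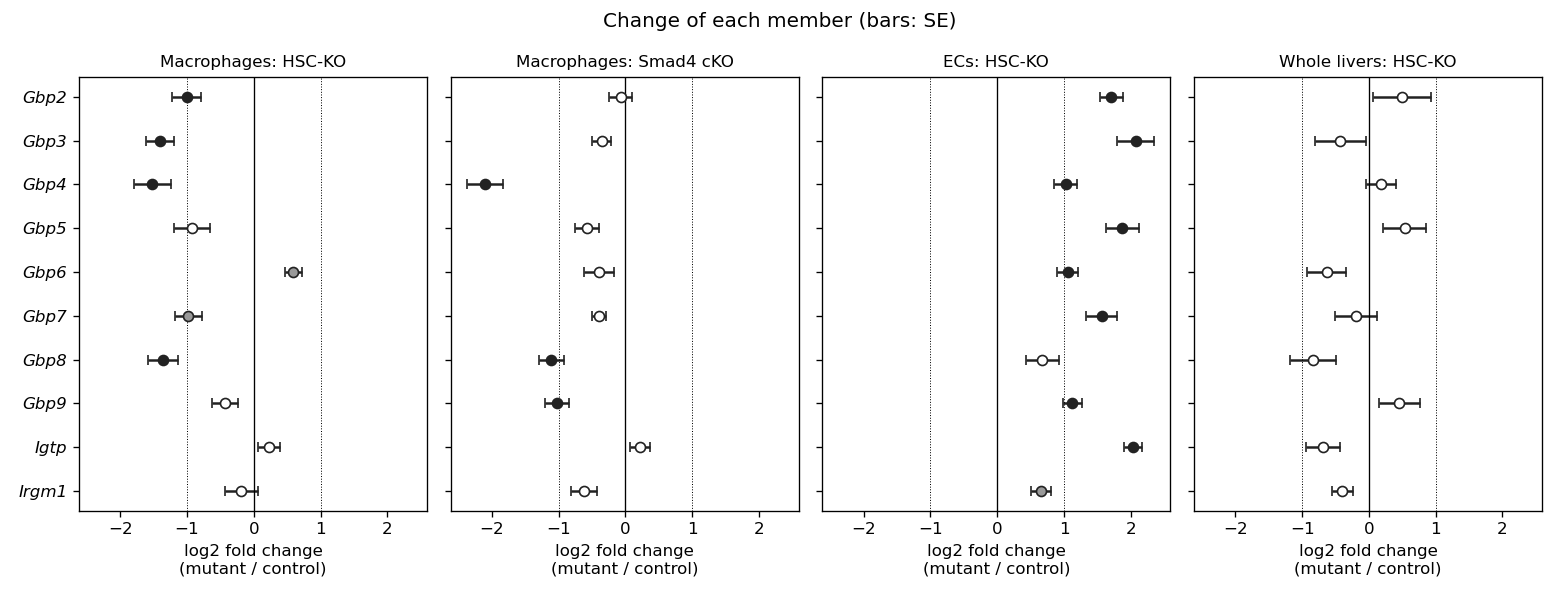
Log2 fold change of each member in the 4 comparisons of mutant with control, 1 panel each. Bars are ± SE (n = 3 against 3), black points are DEGs, grey points passed the adjusted p only, white points did not pass, and dotted lines mark log2 fold changes of 1 and -1. All points lie above 0 in ECs, 8 of 10 lie below 0 in HSC-KO macrophages, and no point is black in livers.

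The difference between the 2 cell types was tested directly, as the HSC-KO response in ECs minus that in macrophages. It passed for 8 of 10 members, all with the higher response in ECs, against 6.00% of all 18213 genes tested in this direction. The median difference was 2.28 over the members and -0.060 over all tested genes. Higher without overlap in ECs and lower without overlap in macrophages were 7 of 10 members, against 3.67% of the 14534 genes tested in both. Gbp3 had the highest difference, 3.47 ± 0.38 on the log2 scale (adjusted p = 0.000173), which is 11.1-fold. It was followed by Gbp5 at 2.79 ± 0.39, Gbp2 at 2.70 ± 0.30, Gbp4 and Gbp7 at 2.53 ± 0.36 and 2.53 ± 0.34, and Gbp8 at 2.03 ± 0.31. The response of Gbp8 in ECs did not pass by itself, and its control EC level may be macrophage RNA (105% by the estimate from markers). Igtp differed by 1.79 ± 0.23 (adjusted p = 0.000403) although its own response in macrophages did not pass, and Gbp9 by 1.54 ± 0.25 (adjusted p = 0.00184). Gbp6 and Irgm1 did not pass, with differences of 0.45 ± 0.19 (adjusted p = 0.135) and 0.83 ± 0.31 (adjusted p = 0.0980). Without HSC-KO macrophage replicate 1 Irgm1 passed as well (1.05, adjusted p = 0.0447). A limma-voom fit with the mouse as a random block, which allows for the 3 mice that gave both cell types, also called 8 members.

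**Figure D3:**
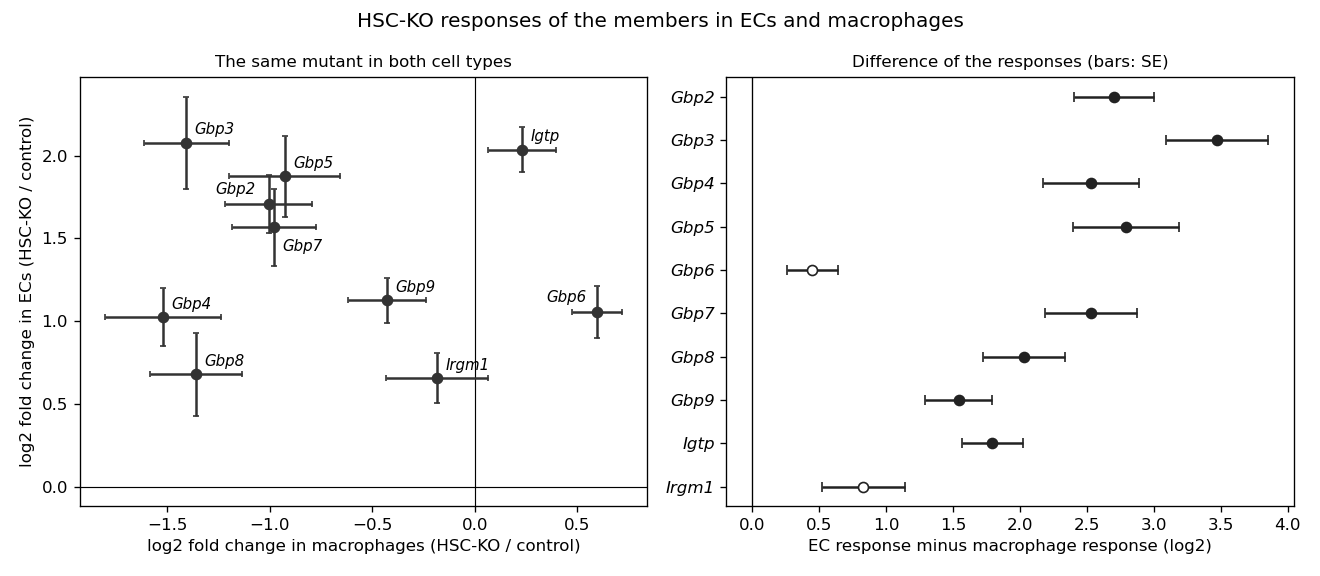
Left, log2 fold change of each member in HSC-KO macrophages (x axis) against that in HSC-KO ECs (y axis), each with its SE. Right, the EC response minus the macrophage response ± SE, with filled points where the difference passed. Gbp2, Gbp3, Gbp4 and Gbp8 sit furthest to the left, Gbp6 and Igtp sit right of 0, and the difference is filled for all members but Gbp6 and Irgm1.

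Macrophages without Smad4 were the second setting in which the BMP and TGF-beta pathway was interrupted, now within the blood lineages. Here 3 of 10 members were DEGs, all lower, against 2.67% of 17517 tested genes that were DEGs in this direction, and all 3 belong to the chromosome 5 cluster. The median log2 fold change was -0.49 over the members and 0.036 over all tested genes. Gbp4 was at 21.5, 26.3 and 29.2 CPM in Smad4FF controls and at 4.996, 8.47 and 4.41 CPM in cKO macrophages, a log2 fold change of -2.11 ± 0.27 (adjusted p = 0.00411). Its mean was 81.5 CPM in control ECs. The share of EC RNA in these macrophage libraries was not estimated, so the cKO level of Gbp4 and this fold are uncertain. Gbp8 was at 289, 228 and 212 CPM against 103, 94.2 and 140 CPM (-1.11 ± 0.19, adjusted p = 0.0139). Gbp9, which had not passed in HSC-KO macrophages, was at 48.2, 48.3 and 43.0 CPM against 25.99, 25.4 and 17.0 CPM (-1.03 ± 0.18, adjusted p = 0.0147). Gbp8 and Gbp9 lay close to both thresholds, and leaving out any 1 library left 1 or 2 DEGs. Without control replicate 1 neither was a DEG and Gbp4 alone remained, Gbp9 was also lost without control replicate 2 (adjusted p = 0.0505), control replicate 3 (adjusted p = 0.0524) or cKO replicate 3 (-0.86), and Gbp8 without cKO replicate 1 (adjusted p = 0.0714) or cKO replicate 2 (-0.998).

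The other members of the Smad4 experiment did not pass. Gbp7 was at 98.5, 99.6 and 101 CPM in controls and 78.2, 78.9 and 70.2 CPM in cKO macrophages (-0.40 ± 0.11, adjusted p = 0.0693). Gbp5 was at 9.05 to 9.87 CPM and 5.44 to 7.54 CPM (-0.58 ± 0.18, adjusted p = 0.104). Irgm1 was at 12.2 to 13.1 CPM and 6.26 to 9.35 CPM (-0.62 ± 0.19, adjusted p = 0.105). In these 3 genes the groups did not overlap, which with the DEGs makes 6 of 10 members lower without overlap, against 14.5% of all tested genes. Gbp2, Gbp3, Gbp6 and Igtp overlapped between the groups, with log2 fold changes of -0.07, -0.36, -0.40 and 0.22. By cluster, the chromosome 5 sum fell by 1.11 (adjusted p = 0.00353), while the chromosome 3 sum had a log2 fold change of -0.32 (adjusted p = 0.117) and the chromosome 11 sum one of 0.11 (adjusted p = 0.708).

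Markers of other cells overlapped between the groups of the Smad4 experiment for T cells, at 37.6 to 95.2 CPM in controls and 49.7 to 177 CPM in cKO, and for NK and ILC1 cells, at 54.3 to 127 and 50.04 to 247 CPM. B cell markers were higher, at 95.3 to 152 CPM against 209 to 217 CPM, and monocyte markers at 145 to 188 CPM against 647 to 907 CPM. Endothelial markers overlapped between the groups, at 647 to 1981 CPM in controls and 1425 to 1785 CPM in cKO. Both ranges lay above the 30.1 to 516 CPM of the macrophages in the HSC-KO experiment. The share of EC RNA in the levels of the members was not estimated for the Smad4 experiment. Kupffer cell markers summed to 23588 to 30194 CPM in controls and 687 to 807 CPM in cKO, and Fabp7 was at 0 in the whole cKO group. Their part in the changes of the members was not tested.

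The responses to loss of the ligands and to loss of Smad4 were compared in 1 model over the 12 macrophage libraries. With edgeR's quasi-likelihood test and Benjamini-Hochberg adjustment, 0 of 10 members differed between the experiments, 5 of 10 had an unadjusted p below 0.05, and DESeq2 called 1 (Gbp3) and gave 2 an adjusted p below 0.05. Over all 18149 tested genes 2.61% were called. The Smad4 response minus the ligand response was -1.04 ± 0.26 for Gbp6 (adjusted p = 0.0595), 1.00 ± 0.27 for Gbp3 (adjusted p = 0.0737) and 0.88 ± 0.29 for Gbp2 (adjusted p = 0.142). Without ligand control replicate 1 or HSC-KO replicate 3 Gbp3 passed, at 1.15 and 1.14, and without cKO replicate 2 Gbp6 passed, at -1.29. For Gbp4 and Gbp8, DEGs in both experiments, it was -0.64 ± 0.41 (adjusted p = 0.496) and 0.20 ± 0.32 (adjusted p = 0.826). These p-values do not show that the responses were equal, and the experiment and any batch between the 2 sets of libraries cannot be told apart.

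Whole livers of HSC-KO mice, whose RNA is mostly that of hepatocytes, gave no call. With edgeR's quasi-likelihood test and Benjamini-Hochberg adjustment 0 of 10 members were DEGs, against 2.48% of 17118 tested genes in either direction, 3 of 10 (Igtp, Irgm1 and Gbp8) had an unadjusted p below 0.05, and DESeq2 called 0. The median log2 fold change was -0.30 over the members and -0.0098 over all tested genes. Igtp was at 62.8, 58.9 and 56.4 CPM in controls and at 40.4, 47.9 and 22.6 CPM in HSC-KO livers (-0.68 ± 0.25, adjusted p = 0.293). Irgm1 was at 67.8, 68.1 and 55.6 CPM against 54.4, 50.9 and 40.2 CPM (-0.40 ± 0.15, adjusted p = 0.312). Both IRGs were lower in every HSC-KO liver than in every control, with an adjusted p that missed the threshold, and these 2 of 10 members compare with 10.9% of all tested genes that were lower without overlap. Gbp8 was at 3.70, 7.15 and 6.49 CPM and at 2.65, 4.57 and 2.46 CPM (-0.84 ± 0.34, adjusted p = 0.350), and the other 7 members ranged from -0.63 (Gbp6) to 0.54 (Gbp5). The spread among the HSC-KO livers was wide, since replicate 3 was the lowest for all 10 members (40.4% of all tested genes) and replicate 2 the highest for 9 (35% of all tested genes). Gbp2, for example, was at 9.53, 10.6 and 10.8 CPM in controls and at 17.3, 21.04 and 5.17 CPM in HSC-KO livers. Macrophage markers summed to 314 to 466 CPM in control and 113 to 177 CPM in HSC-KO livers, and endothelial markers to 448 to 551 and 318 to 378 CPM. Their part in the values of the members was not tested.

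Levels were compared between genes as CPM per kilobase of annotated exon. For this the CPM were scaled over all 24 libraries together, so they differ from the CPM of single genes given above. In control macrophages of the HSC-KO experiment Gbp8 was the most abundant at 71.6 ± 14.0 CPM per kb (SD, n = 3), above all others in each library. Igtp at 42.9, Gbp3 at 42.1, Gbp2 at 39.0 and Gbp7 at 38.3 CPM per kb overlapped with their neighbours in this order. Gbp9 followed at 10.4, then Gbp4 at 5.21, Irgm1 at 4.35 and Gbp6 at 4.28, which overlapped, and Gbp5 was the lowest at 2.46 CPM per kb. In HSC-KO macrophages Igtp took the first place at 48.3 ± 2.76 CPM per kb, clear of Gbp8 at 26.8 ± 6.63, and Gbp5 stayed lowest at 1.23. In the Smad4FF controls Gbp8 again led at 70.0 ± 11.4, ahead of Gbp3 at 31.3 and Igtp at 30.8, which overlapped. In the cKO macrophages Igtp at 35.6, Gbp8 at 32.3 and Gbp3 at 24.3 CPM per kb overlapped in turn, and Gbp4 at 0.786 had the lowest mean, overlapping with Gbp5 at 0.951. The level of Gbp4 in these cells may hold EC RNA, the share of which was not estimated.

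The order was different in ECs. Control ECs were led by Gbp7 at 23.2 ± 2.88, Igtp at 22.0 ± 2.46 and Gbp2 at 20.5 ± 0.818 CPM per kb, which overlapped. Gbp9 at 9.55, Gbp4 at 9.28 and Gbp3 at 9.04 came next, then Irgm1 at 3.74 and Gbp6 at 3.60, then Gbp5 at 0.922 and Gbp8 at 0.729, with overlap inside each of these sets. In HSC-KO ECs Igtp stood first at 91.8 ± 6.63, clear of Gbp7 at 69.9 ± 19.1 and Gbp2 at 68.3 ± 13.5, which overlapped, and Gbp3 came next at 38.8 ± 12.8. Gbp9 at 21.2, Gbp4 at 19.2, Gbp6 at 7.62, Irgm1 at 6.00, Gbp5 at 3.44 and Gbp8 at 1.19 CPM per kb completed the order. In livers Igtp at 35.2 and Irgm1 at 13.2 CPM per kb in controls led the members, and the 8 GBPs were at 6.74 or below. In HSC-KO livers the same IRGs led at 21.1 and 9.63.

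Control ECs and control macrophages were also compared directly. Of the 10 members 3 were DEGs, all lower in ECs, against 18.0% of 16160 tested genes. Gbp8 was 93.5-fold lower in the EC libraries (log2 fold change -6.55 ± 0.27, adjusted p = 4.97e-06). Since macrophage RNA in the proportion of its markers would make up 105% of the control EC level of Gbp8, its level in ECs themselves, and so this fold, is uncertain. Gbp3 was 4.44-fold lower (-2.15 ± 0.22, adjusted p = 0.000230) and Gbp5 2.54-fold lower (-1.34 ± 0.22, adjusted p = 0.00199). Gbp2, Gbp7 and Igtp were lower in ECs within the fold limit, at -0.86, -0.66 and -0.89, and Gbp4 was higher at 0.90 ± 0.24 (adjusted p = 0.0190). Gbp6, Gbp9 and Irgm1 did not pass, so that 7 of 10 members passed the adjusted p, against 49.1% of all tested genes. Gbp4 went past the fold limit without control macrophage replicate 3 (1.23) or control EC replicate 2 (1.04), and Igtp without control macrophage replicate 2 (-1.003). The choice of macrophage controls mattered here. With the Smad4FF controls in their place, Gbp2 and Gbp7 turned to 0.15 and 0.38, and the values of Gbp6, Gbp9 and Irgm1 to 0.58, 0.08 and 0.78, and of these Gbp6, Gbp7 and Irgm1 passed the adjusted p as higher in ECs. Gbp5 came within the fold limit (-0.65, adjusted p = 0.0176) and Gbp4 went past it (1.43, adjusted p = 0.000378), while Gbp8 and Gbp3 remained DEGs, lower in ECs.

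Within groups, the members tended to share the order of the libraries. In control macrophages of the HSC-KO experiment replicate 3 was the highest library for 9 of 10 members and for 35.9% of all tested genes, and in HSC-KO macrophages replicate 3 was the highest for 8 members and 32% of all genes. In HSC-KO ECs replicate 1 was the lowest for 8 members and 32.7% of all genes, and in control livers replicate 1 was the lowest for 8 members and 36% of all genes. By the mouse numbers in the labels, HSC-KO macrophage replicate 3 and HSC-KO EC replicate 1 came from the same mouse. In the Smad4 experiment and in control ECs no library was highest, and none lowest, for more than 5. HSC-KO EC replicate 1 was also the mutant EC library with the most reads from Dnase1l3, a gene of liver sinusoidal ECs, which took 5.57% of its reads and 14.0% to 20.4% of the reads of the control ECs. The part of this difference in the spread of the members was not tested.

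As deviations of log2 CPM from the group means over all 24 libraries, Gbp7 followed the mean of the other 9 members most closely, with Pearson's r of 0.95. Gbp3 and Gbp2 had r of 0.87 each, Gbp5 0.79, Gbp9 0.73, Gbp6 0.70, Igtp 0.65, Gbp4 0.53 and Gbp8 0.52, and Irgm1 only 0.14. Of the 45 pairs of members 42 had a positive r, with a median of 0.55 and a range from -0.20 to 0.93. Over all pairs of 10842 genes, 51.2% had a positive r and the median was 0.0088. These r values are descriptions over libraries that share their depth and preparation within a group. Among 10832 other genes, those closest to the mean deviation of the members were Zc2hc1a (r = 0.88), Psmb9 (r = 0.88), an interferon-induced proteasome subunit, Sp140 (r = 0.84), Zbp1 (r = 0.83), an interferon-induced nucleic acid sensor, and Gstt3 (r = 0.82).

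**Figure D4:**
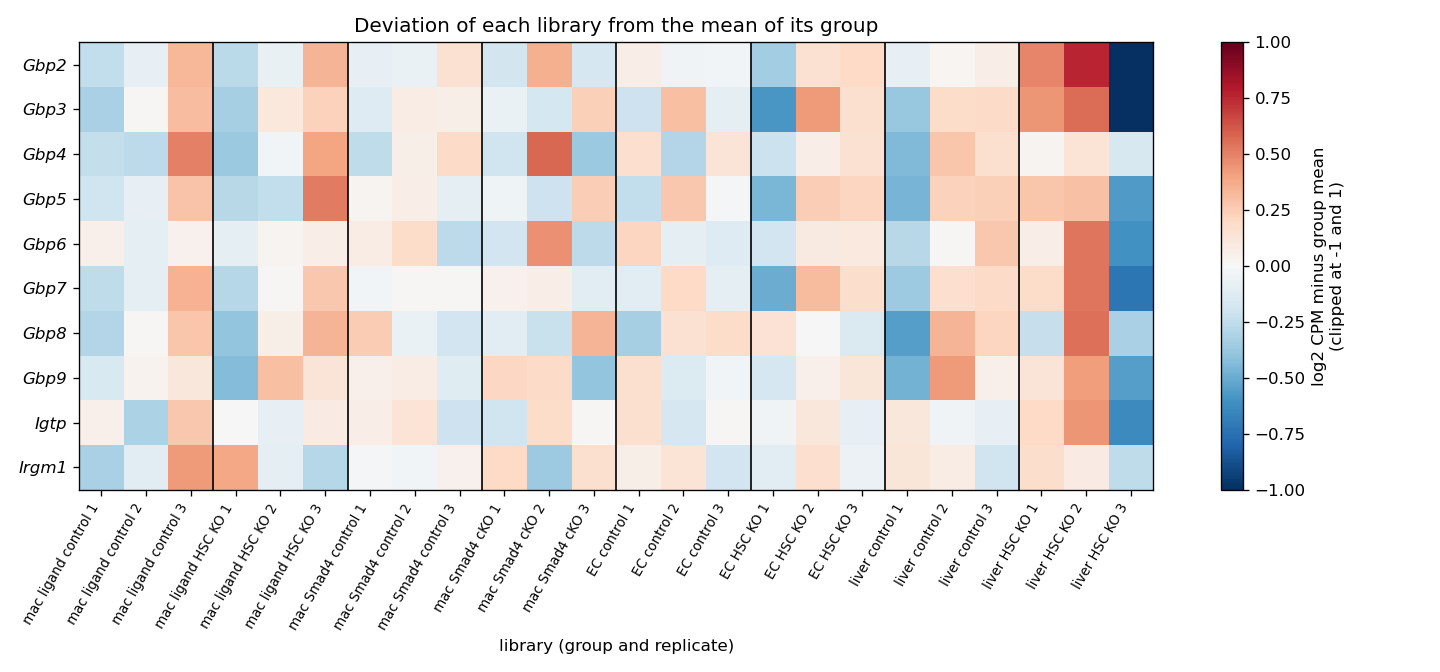
Deviation of each member's log2 CPM from its group mean in all 24 libraries, members in lines and libraries in columns ordered by group, with colours limited to deviations of 1 and -1. Columns of 1 colour, such as HSC-KO liver replicate 3, for which all 10 members are the lowest of the group, are libraries in which the members deviate together.

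Most of the tested family genes outside the 10 were higher in HSC-KO ECs as well. In ECs 6 of the 9 that could be tested (of 13) were DEGs, all higher, against 7.68% of all tested genes. Tgtp1, an effector IRG of the Irgb6 type, had the highest rise, from 85.6, 83.1 and 65.5 CPM in control ECs to 419, 647 and 571 CPM in HSC-KO ECs (log2 fold change 2.80 ± 0.21, adjusted p = 0.000190). Tgtp2, its near-identical neighbour, rose by 2.41 ± 0.20, and reads of such copies may be assigned to either gene. The effectors Iigp1 and Ifi47 rose by 1.46 ± 0.20 and 1.21 ± 0.17, the very large GTPase Gvin1 by 1.46 ± 0.13 and the regulator Irgm2 by 1.03 ± 0.18. Gbp2b, Gbp10 and Gbp11 did not pass in ECs, at -1.04, -0.24 and 0.19.

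In macrophages 1 family gene outside the 10 was a DEG, Gbp2b, the neighbour of Gbp2 on chromosome 3 and the mouse gene also called Gbp1. It was at 171, 194 and 207 CPM in controls and at 1.11, 1.86 and 5.90 CPM in HSC-KO macrophages, a log2 fold change of -6.01 ± 0.63 (64.5-fold lower, adjusted p = 0.000731). The remaining 7 tested did not pass, with log2 fold changes from -1.06 (Gbp10) to 0.28 (Gvin1). In the Smad4 experiment Gbp2b was at 168, 239 and 229 CPM in controls and at 16.3, 23.9 and 31.5 CPM in cKO macrophages (-3.15 ± 0.27, adjusted p = 0.000797). Of the 9 family genes tested outside the 10, Gbp2b was the 1 whose responses to loss of the ligands and of Smad4 differed, by 2.82 ± 0.66 (adjusted p = 0.0429). In livers it was at 2.43, 3.82 and 3.30 CPM in controls and 0.121, 0 and 0.0557 CPM in HSC-KO (adjusted p = 0.0117).

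The interferon-gamma pathway itself was followed with a list of 12 genes. Ifng, the ligand, had 0 counts in all 6 EC libraries. In ECs 1 of the 11 genes tested was a higher DEG and 3 were lower DEGs, against 7.68% and 6.01% of all genes tested in ECs. The receptor chain Ifngr1 rose from 95.2, 106 and 114 CPM to 354, 467 and 457 CPM (2.02 ± 0.16, adjusted p = 0.000238), and Ifngr2 did not pass (-0.46 ± 0.20, adjusted p = 0.157). The kinase Jak1 fell by 1.89 ± 0.19 (adjusted p = 0.000627), the transcription factor Irf8 by 1.57 ± 0.43 and the feedback inhibitor Socs1 by 1.07 ± 0.31. The transcription factor Irf1, a known binder of the response element core, rose within the fold limit (0.72 ± 0.18, adjusted p = 0.0269).

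The same list gave 0 DEGs in HSC-KO macrophages, in Smad4 cKO macrophages and in livers. Of all tested genes 11.7%, 5.43% and 2.48% were DEGs in either direction in these comparisons. In HSC-KO macrophages Ifngr2 rose by 0.66 ± 0.15 (adjusted p = 0.0184), while Ifngr1 (-0.07, adjusted p = 0.760) and Irf1 (-0.28, adjusted p = 0.306) did not pass. Ifng had 26, 0 and 0 counts in control and 53, 28 and 71 counts in HSC-KO macrophages (2.40 ± 1.49, adjusted p = 0.310), in which the T cell and NK cell markers were also higher.

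Other interferon-induced genes were counted in lists of textbook targets. In ECs, of 25 tested interferon-gamma targets, 9 were higher DEGs, 1 was a lower DEG and 9 more rose within the fold limit, with a median log2 fold change of 0.97. Of all genes tested in ECs 7.68% were higher and 6.01% lower DEGs. Nos2 (6.01 ± 0.20), the inducible nitric oxide synthase, and the MHC class II genes H2-Ab1 (4.36 ± 0.14) and H2-Aa (3.62 ± 0.22) had the highest rises among targets whose log2 CPM averaged 1 or more. Macrophage RNA in the EC libraries was estimated for the 10 members only, and its part in the rise of these targets was not tested. Ciita, the transactivator of the class II genes, lay under that level, with 0, 8 and 16 counts in control ECs and 385, 203 and 254 counts in HSC-KO ECs (4.86 ± 0.91, adjusted p = 0.00904). Of 29 tested type I interferon genes, 14 were higher DEGs and 0 were lower, with a median of 1.06, led by Oas2 (3.05 ± 0.53), Rsad2 (2.89 ± 0.28) and Zbp1 (2.76 ± 0.26).

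In HSC-KO macrophages the counts were smaller. Of 23 interferon-gamma targets tested, 12 had a log2 fold change above 0 and the median was 0.026. Higher DEGs were 6 of them, against 6.32% of all tested genes, 0 were lower DEGs, and within the fold limit 1 rose and 2 fell. The higher DEGs were led by H2-Eb1 (2.39 ± 0.21), H2-Ab1 (1.95 ± 0.22) and H2-Aa (1.93 ± 0.19). Of 30 type I interferon genes, 1 was a higher DEG and 4 were lower (median -0.12), including Oas3 (-1.69 ± 0.14), Irf7 (-1.56 ± 0.24) and Oasl1 (-1.29 ± 0.12). Lower DEGs were 5.34% of all genes tested in these macrophages. In Smad4 cKO macrophages 0 of 23 interferon-gamma targets were DEGs (median -0.24), and 8 of 30 type I interferon genes were lower DEGs with 0 higher, led by Oasl1 (-3.24 ± 0.38), Oas3 (-3.04 ± 0.44) and Irf7 (-2.30 ± 0.26). Of all genes tested in the Smad4 experiment 2.76% were higher and 2.67% lower DEGs. In livers 1 of 25 interferon-gamma targets, Nos2 (6.40 ± 0.72), was a higher DEG, and of 30 type I interferon genes Rsad2 was higher (1.93 ± 0.31) and Oas3 lower (-2.36 ± 0.44). Of all genes tested in livers 1.03% were higher and 1.45% lower DEGs.

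Genes that work with GBPs and IRGs at inflammasomes and vacuoles were counted in the same way. Of 8 inflammasome genes tested in ECs, 0 were higher and 2 lower DEGs, and of 16 genes of vacuole targeting and autophagy 0 were higher and 1 lower. Lists this short hold about 1 DEG in each direction at the shares of all genes tested in ECs (7.68% higher and 6.01% lower). The difference from the members was not tested. In HSC-KO macrophages the inflammasome sensors Nlrp1b (1.34 ± 0.31) and Nlrc4 (1.14 ± 0.17) were higher DEGs and pyrin, encoded by Mefv (-2.64 ± 0.20), a lower DEG among 12 tested, and Lgals3 (-1.13 ± 0.29), a lectin that marks damaged vacuoles, and Map1lc3a (-1.02 ± 0.13), an autophagosome protein, were lower among 16. At the shares of all genes tested in these macrophages, 6.32% higher and 5.34% lower DEGs, such lists hold about 1 DEG in each direction. The difference of the lists from these shares was not tested. In cKO macrophages Mefv (-5.57 ± 0.33) and Il1b (-2.59 ± 0.42) were lower DEGs among 12 inflammasome genes tested, against 2.67% of all tested genes. In livers 0 genes of either list were called.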

How the data were processed

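RNA was sequenced from sorted macrophages, sorted ECs and livers in 24 libraries. According to the study's methods and processing notes, the authors aligned reads to mm10 (GRCm38) with HISAT2 and deposited raw gene counts from featureCounts, 48820 entries per table, in 4 tables. The annotation release, the use of strand and the handling of reads that map to several places are not given in the sources used here, and the 483 entries with a repeated symbol were left out of the tests. Here counts were filtered with filterByExpr (minimum count 10, minimum total 15), scaled by TMM and tested with edgeR 4.0.16 (glmQLFit and glmQLFTest, R 4.3.3), with Benjamini-Hochberg adjustment over all tested genes and with interaction terms for differences between responses. To count as a DEG a gene needed an adjusted p under 0.05 together with a log2 fold change beyond 1 in either direction. The SE is the log2 fold change divided by the square root of F. Alternatives were DESeq2 1.42.0, limma 3.58.1 with the mouse as a block, other scalings, filters and thresholds, a replicate block, Xist as a covariate and leaving out each library. Shared windows of 100 bases were counted in GENCODE vM21 transcripts. The scripts were tested on simulated data. Beside all 10 members, the named genes were Ifng, Ifngr1, Ifngr2, Irf1, the other family genes, up to 3 non-overlapping DEGs per list and comparison with the largest fold and an average log2 CPM not under 1, and the 5 genes most like the members. Socs1, Ciita and the zero-count markers were named after their values were seen, and 1 gene that the rule would name is not reported here. The members and lists were chosen with earlier results of these data known.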

Additional observations from a re-analysis of the deposited data

Results flagged for a closer look

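The HSC-KO response of 8 members differed between ECs and macrophages by edgeR's quasi-likelihood test of the interaction with Benjamini-Hochberg adjustment over all genes (adjusted p from 0.000173 to 0.00184, n = 3 libraries per group). On the log2 scale the EC response exceeded the macrophage response by 3.47 for Gbp3, 2.79 for Gbp5, 2.70 for Gbp2, 2.53 for Gbp4, 2.53 for Gbp7, 2.03 for Gbp8, 1.79 for Igtp and 1.54 for Gbp9. For 7 of these, Gbp2, Gbp3, Gbp4, Gbp5, Gbp7, Gbp8 and Gbp9, all HSC-KO EC libraries lay above all control EC libraries and all HSC-KO macrophage libraries below all control macrophage libraries, as did 3.67% of all genes tested in both cell types. Igtp rose in ECs and overlapped between the groups in macrophages. The EC change of Gbp8 did not pass by itself (adjusted p = 0.101 by edgeR's test). By the estimate from markers, macrophage RNA would make up 105% of its control EC level.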

How the results depend on the processing

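Most values kept their direction and their side of the threshold under the alternatives. For the members 1086 of the alternative values did, 26 came past the threshold, 33 dropped below it and 25 turned direction. The count of called members in ECs was 8, between 7 and 8 without 1 library, and 4 when edgeR tested against a log2 fold change of 1 (glmTreat). In HSC-KO macrophages it was 4, between 3 and 6 without 1 library, and 0 under glmTreat. In Smad4 cKO macrophages the count of 3 became 1 with library size alone and 1 under glmTreat, and 1 to 2 without 1 library (1 without control replicate 1). Between the ligand and Smad4 responses 1 member (Gbp3) was called by DESeq2, 1 with library size alone and 1 with all genes of at least 1 count, and 0 to 1 without 1 library. With no limit on the fold change, 7 members instead of 3 differed between control ECs and control macrophages (49.1% of all tested genes). Xist, a transcript of the inactive X chromosome of females, differed between libraries of 1 group and was tried as a covariate. With it Gbp5 (-1.15, adjusted p = 0.0304) and Gbp7 (-1.20, adjusted p = 0.00317) joined the DEGs in HSC-KO macrophages, 6 in all, and Gbp4 (0.999) left those in ECs, by edgeR's test. Scaling by library size alone shifted the median of all genes by 0.29 in ECs, 0.16 in the Smad4 experiment, -0.11 in livers, 0.21 for ECs minus macrophages and 0.12 for Smad4 minus ligand, and all 10 members stayed above 0 in ECs.

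Without 1 library, the chromosome 3 sum in HSC-KO macrophages ranged from -1.27 to -0.91 (within the fold limit without control replicate 3, -0.91, or HSC-KO replicate 1, -0.96), the chromosome 5 sum there from -1.10 to -0.80 (past it without control replicate 1, -1.06, or HSC-KO replicate 3, -1.10), the chromosome 5 sum in ECs from 0.97 to 1.16 (within it without control replicate 2, 0.97, or HSC-KO replicate 3, 0.99) and the chromosome 3 sum in livers from -0.35 to 0.26 (0.026 and 0.034 without control replicates 2 and 3). Treating the replicate number as a block left the counts of called members at 4 in HSC-KO macrophages, 3 in cKO macrophages, 8 in ECs, 0 in livers, 8 for ECs minus macrophages, 0 for Smad4 minus ligand and 3 for control ECs against macrophages. The numbers were not taken as pairs, since the correlations of same-numbered libraries ranged from -0.21 to 0.23.

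Apart from Gbp2 and Gbp7 in control ECs against macrophages, the values that turned direction had not passed the adjusted p. With library size alone Ifngr1 (0.011) and Tgtp2 (0.092) did in HSC-KO macrophages, Gbp2 (0.079) and Tgtp1 (0.15) in cKO macrophages, Gbp10 (0.013) in ECs, Irf1 (-0.096) in livers, Igtp (0.052) in Smad4 minus ligand and Gbp9 (0.047) in control ECs against macrophages. Tgtp2 in HSC-KO macrophages turned with all genes of at least 1 count (0.0011), only genes with 10 counts in every library (0.0099), the replicate block (0.064) and all 12 macrophage libraries in 1 fit (0.0048). The filter of 10 counts also turned Tgtp1 in cKO macrophages (0.0030), and the replicate block Gbp10 in ECs (0.13). DESeq2's size factors (0.0093) and all genes of at least 1 count (0.033) turned Igtp in Smad4 minus ligand. With Xist as a covariate Ifngr1 (0.014), Irgm2 (-0.0070) and Tgtp1 (-0.028) turned in HSC-KO macrophages, and Gbp7 (0.12) and Irgm2 (0.12) in livers. With the Smad4FF controls as the macrophages, Gbp2 (0.15), Gbp6 (0.58), Gbp7 (0.38), Gbp9 (0.083) and Irgm1 (0.78) turned in control ECs against macrophages, and Gbp6, Gbp7 and Irgm1 then passed (adjusted p = 0.0185, 0.0362 and 0.00206 by edgeR's test). The cause was not tested.

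Leaving out 1 library, the values in HSC-KO macrophages ranged from -0.40 to 0.060 for Irgm1, -0.026 to 0.14 for Irgm2, -0.018 to 0.38 for Tgtp1, -0.19 to 0.36 for Tgtp2, -0.38 to 0.063 for Iigp1 and -0.047 to 0.45 for Gvin1. In cKO macrophages they ranged from -0.27 to 0.016 for Gbp2, -0.13 to 0.13 for Tgtp1, -0.081 to 0.21 for Tgtp2, -0.028 to 0.084 for Irgm2, -2.14 to 0.22 for Ifng and -0.11 to 0.31 for Irf1. In ECs they ranged from -0.78 to 0.39 for Gbp10 and -0.0060 to 0.33 for Gbp11. In livers they ranged from -0.013 to 0.34 for Gbp4, -0.49 to 0.085 for Gbp7, -0.30 to 0.12 for Irgm2, -0.20 to 0.26 for Irf1 and -0.028 to 0.29 for Ifngr1. For Igtp in Smad4 minus ligand they ranged from -0.15 to 0.14, and in control ECs against macrophages from -0.12 to 0.045 for Gbp9 and -0.31 to 0.13 for Irgm1. Groups of 3 limit what could be called. Gbp8, the member with the lowest CPM in ECs, had 187 to 484 counts per library.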
